A study of Mus musculus with 4 samples.

Results

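Resident and recruited macrophage markers were examined as 10 genes of the 24532 in the expression table, matched by symbol and read in all 4 libraries. They were the general markers Adgre1, Cd68 and Lyz2, the receptor gene Csf1r and its ligand gene Csf1, the monocyte marker Ly6c2, and the resident macrophage markers Folr2, Mertk, Lyve1 and Timd4. All 10 were above 0 in every library, and 9 reached at least 1 FPKM (fragments per kilobase of transcript, relative to all mapped fragments) in every library, the exception being Timd4. The rule used the symbols and not the values. Each library was made from articular cartilage of wild type C57BL/6 mice, from sham-operated or injured joints of young or adult mice. Young mice were 3 weeks old, and the sample titles give the adult mice 12 weeks, their other labels 14 weeks, and the study's methods give 10 weeks. Injured cartilage was taken 3 days after a needle injury through the full thickness of the cartilage in the femoral groove, in left knees of male mice, whereas the labels name a different operation, DMM (destabilization of the medial meniscus). The label of the adult sham library spans days 3 to 14. Cartilage of 10 injured or 5 uninjured mice was pooled, so each group was 1 library and differences between libraries have no replicate check. Where 4 values of a gene follow each other below, the first pair is sham and injured cartilage of young mice and the second pair that of adult mice.

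Macrophages are phagocytes that depend on the receptor tyrosine kinase CSF1R, which is bound by the cytokines CSF1 and IL-34. Some are long-lived residents of a tissue and often carry LYVE1, TIMD4, FOLR2 or MERTK, and others arise after injury from circulating monocytes, of which the classical kind carries Ly6C. In the joint, macrophages line the synovial membrane and enter injured tissue from blood and bone marrow. Cartilage itself has no blood vessels, and its dissection can carry neighbouring synovium, bone and marrow along. The libraries were labelled as chondrocytes, and the cartilage collagen gene Col2a1 stood at 9349 FPKM in sham and 7903 FPKM in injured joints of young mice, compared with 3173 and 3750 FPKM in those of adults.

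The level of general macrophage markers was several times higher in injured than in sham cartilage at both ages, and Folr2 was the resident marker that rose with them. Mertk and Timd4 stayed within 2-fold, and so did Lyve1 once 1 FPKM was added to each value, though its FPKM ratios alone were past 2-fold (0.342 and 0.483, both lower after injury). Ly6c2 rose by a similar amount in young and adult mice without a scaling between libraries. Differences are given as the log2 ratio of 2 libraries after 1 FPKM was added to each value, and a gene counted as different from 2-fold upward. In young cartilage 6 of the 10 genes were at least 2-fold higher after injury, where 4.57% of all 18181 genes above 0 in at least 1 library were, and none was 2-fold lower, against 1.27% of all genes. In adult cartilage 7 of the 10 were at least 2-fold higher, against 6.9% of all genes, and none was 2-fold lower, against 1.46%. For the 10 genes the injury ratio had a median of 1.83 (young) and 1.42 (adult) on the log2 scale, beside medians of 0 and 0.14 over all 18181 genes. In these bulk libraries more cells of a type and more RNA per cell cannot be told apart.

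**Figure D1:**
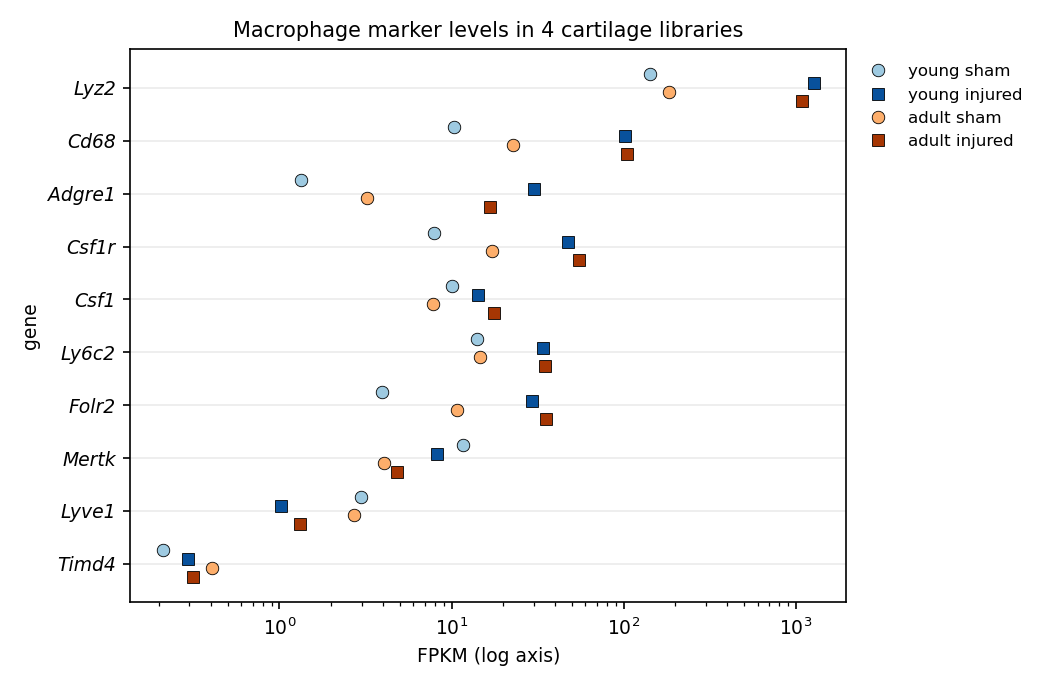
Level of each of the 10 genes in FPKM, on a log axis, with 1 point for each of the 4 libraries (circles sham, squares injured, blue young, orange to brown adult). Lyz2, Cd68, Adgre1, Csf1r, Folr2, Ly6c2 and Csf1 were higher in both injured libraries than in both sham libraries, while Lyve1 was lower in both injured libraries and Timd4 stayed below 1 FPKM.

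Lyz2 encodes lysozyme, which cuts bacterial cell walls and is made by macrophages, monocytes and neutrophils. It was the most abundant of the 10 genes, at 141.5 FPKM in sham and 1271 FPKM in injured joints of young mice, compared with 183.2 and 1090 FPKM in those of adults. This corresponds to log2 ratios for injury of 3.16 (young) and 2.57 (adult). Cd68, a glycoprotein of the lysosome, was at 10.3, 102.0, 22.9 and 104.4 FPKM, listed likewise, with log2 ratios of 3.19 and 2.14. The levels of Lyz2 and Cd68 in the injured libraries differed little between the ages, with log2 ratios of young to adult of 0.22 and −0.03. The sign of the Lyz2 value turned to −0.21 after quantile normalization.

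Adgre1 encodes a surface receptor of the adhesion family whose antibody stain is widely used to identify mouse macrophages. Its level was 1.33 FPKM in sham and 30.3 FPKM in injured joints of young mice, compared with 3.22 and 16.8 FPKM in those of adults. The log2 ratio of 3.74 in young mice was the highest of the 10 genes, and that in adult mice was 2.07. Without an added pseudocount, the FPKM ratios were 22.7 in young and 5.20 in adult mice. Adgre1 was also the member that differed most between the injured libraries, with a young to adult log2 ratio of 0.82, which lies below 2-fold.

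Csf1r, the receptor on which macrophages depend for survival, was at 7.90 FPKM in sham and 47.6 FPKM in injured joints of young mice, compared with 17.1 and 55.0 FPKM in those of adults. It rose by 2.45 (young) and 1.63 (adult) on the log2 scale. Both injured libraries stood above both sham libraries, and adult sham was above young sham. Exons of Csf1r overlap those of Hmgxb3 on the opposite strand, and whether the fragments were counted by strand is not given in the sources used here.

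Csf1, the ligand, moved less than its receptor. Its level was 10.1 FPKM in sham and 14.3 FPKM in injured joints of young mice, compared with 7.85 and 17.7 FPKM in those of adults, with log2 ratios of 0.47 (young) and 1.08 (adult). It was the only member that passed 2-fold in adult but not in young cartilage, and the adult value was 0.77 after median-of-ratios scaling, 0.80 after quantile normalization and 0.82 with a pseudocount of 5 FPKM, each under 2-fold. Il34, the other ligand of the receptor, was not among the 10 genes, and stood at 1.88, 1.08, 12.1 and 6.38 FPKM, listed likewise. Its log2 ratios after injury were −0.47 and −0.83, and it was 2-fold higher in adult than in young cartilage in the sham (2.19) and the injured libraries (−1.82 for young against adult). Csf1 thus lay above Il34 in both injured libraries, and below it only in adult sham cartilage.

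Ly6c2 encodes a surface protein that is abundant on classical monocytes. It was at 14.0 FPKM in sham and 33.9 FPKM in injured joints of young mice, compared with 14.6 and 35.2 FPKM in those of adults. The log2 ratios of 1.21 in both ages were nearly equal, with a difference of 0.01, and the levels of the sham libraries (0.06) and of the injured libraries (−0.05) were also close. In adult mice the value was 0.89 after median-of-ratios scaling and 0.98 after quantile normalization, both below 2-fold. The young values under these scalings were both 1.19, so the near equality of the ages holds on the FPKM as deposited and not with median-of-ratios scaling. Its neighbour Ly6c1, which endothelial cells express, was at 6.11, 25.9, 26.2 and 44.8 FPKM. Of the 31-base words in Ly6c2 transcripts, 21.4% also occur in Ly6c1, so that fragments of these genes can be split between them. Likewise 32.8% of the words of Lyz2 occur in Lyz1, which was at 1.17, 11.7, 2.44 and 11.6 FPKM and thus far below Lyz2. None of the words of Adgre1, Cd68, Csf1, Lyve1, Timd4, Folr2 or Mertk was found in another gene, and 0.38% of those of Csf1r.

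**Figure D2:**
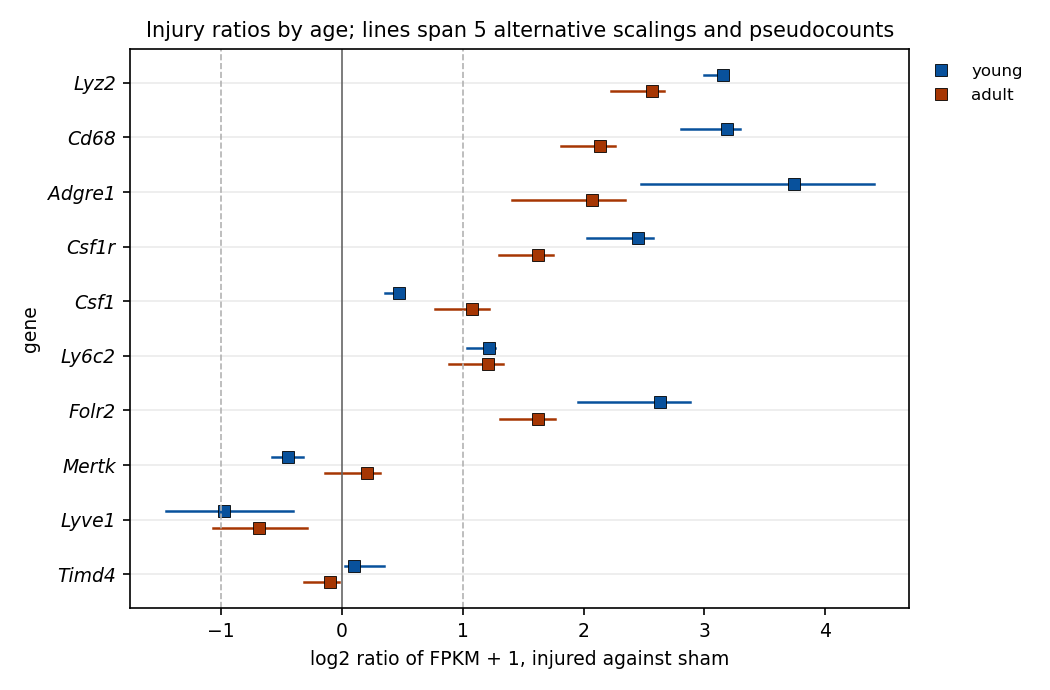
Log2 ratio of FPKM + 1 for injured against sham cartilage, with blue squares for young and brown squares for adult mice. Each line spans the values under 3 other scalings and 2 other pseudocounts, and the dashed lines mark 2-fold; Adgre1 in young mice had the longest line, from 2.48 to 4.41.

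The resident markers did not move together. Folr2, a folate-binding receptor found on perivascular and other resident macrophages, was at 3.92 FPKM in sham and 29.5 FPKM in injured joints of young mice, compared with 10.8 and 35.3 FPKM in those of adults. Its injury ratios of 2.63 (young) and 1.63 (adult) were close to the 2.45 and 1.63 of Csf1r. Lyve1, a hyaluronan receptor of some resident macrophages and of lymphatic vessels, was at 2.99 FPKM in sham and 1.02 FPKM in injured joints of young mice, compared with 2.72 and 1.32 FPKM in those of adults. Both injured libraries lay below both sham libraries. On the scale with 1 FPKM added, the log2 ratios were −0.98 and −0.68, which is within 2-fold, while the FPKM ratios themselves were 0.342 and 0.483. With a pseudocount of 0.1 FPKM the young value was −1.46.

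Mertk, a receptor tyrosine kinase through which macrophages and other phagocytes bind apoptotic cells, was at 11.6 FPKM in sham and 8.25 FPKM in injured joints of young mice, compared with 4.03 and 4.80 FPKM in those of adults. The order of its levels followed age and not injury, with both young libraries above both adult libraries. Injury gave it log2 ratios of −0.45 (young) and 0.20 (adult), neither of them 2-fold, and the adult value turned to −0.14 after quantile normalization and was also below 0 after median-of-ratios scaling. Timd4, a receptor for phosphatidylserine on the surface of dying cells, was at 0.210, 0.295, 0.407 and 0.314 FPKM, listed likewise. If the lowest regular step of FPKM multiplied by transcript length is taken as 1 fragment, these values rest on about 12.1, 16.8, 27.3 and 17.6 fragments, too few for a direction to be read from them. By the same reckoning Lyve1 rested on about 228.5, 77.8, 243.0 and 98.3 fragments and Adgre1 on 114.0, 2574, 321.9 and 1403.

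To compare the members independently of the scaling between libraries, each FPKM was divided by that of Csf1r in the same library. Folr2 kept nearly the same proportion to Csf1r in all libraries, at 49.6% (sham) and 62.0% (injured) in young and 62.8% and 64.2% in adult mice. Lyve1 stood at 37.9%, 2.15%, 15.9% and 2.39% of Csf1r in the same order, which is 17.6 times lower after injury in young and 6.64 times lower in adult mice. The FPKM ratios of Lyve1 itself were 0.342 and 0.483, and the rest of this drop is the rise of Csf1r. Mertk was at 147.0% of Csf1r in young sham cartilage and at 17.4%, 23.5% and 8.73% in the other libraries. How much of the Mertk level came from cells other than macrophages was not tested. Timd4, on few fragments, was at 2.66%, 0.619%, 2.38% and 0.571%. Csf1r itself had FPKM ratios of 6.02 (young) and 3.21 (adult) after injury, so that a gene that does not rise has a smaller share of it, and the shares of Mertk and Timd4 show no fall of these genes. The choice of the reference gene matters for Folr2, which was at 294.0% and 97.3% of Adgre1 in young and at 334.0% and 210.5% in adult mice, 3.02 and 1.59 times lower after injury.

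Ly6c2 was at 177.7% of Csf1r (sham) and 71.3% (injured) in young and 85.5% and 64.0% in adult mice, so its rise after injury was smaller than that of the receptor at both ages. Adgre1 was at 16.9% and 63.7% in young and at 18.8% and 30.5% in adult mice. Cd68 was at 130.2% and 214.4% in young and at 133.8% and 189.9% in adult mice. Csf1 was at 127.2% of its receptor in young sham and at 30.1%, 45.8% and 32.1% in the other libraries, the young sham library being the only one where the ligand exceeded the receptor.

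**Figure D3:**
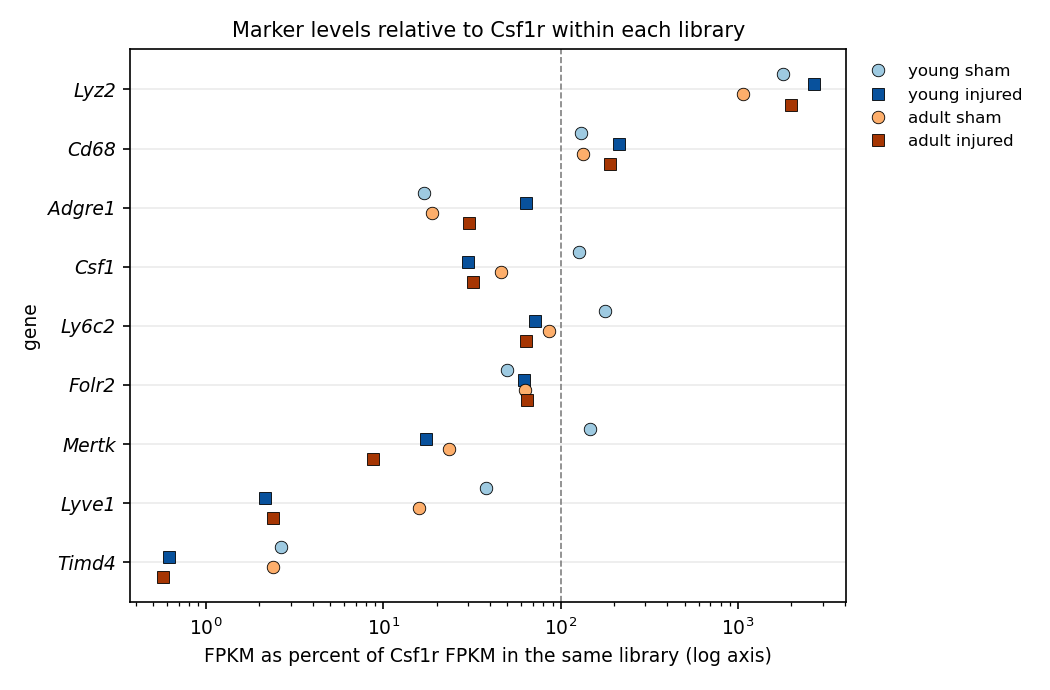
FPKM of 9 genes as a percent of the Csf1r FPKM of the same library, on a log axis, with the dashed line at 100%. The 4 points of Folr2 lie together between 49.6% and 64.2%, whereas Lyve1 lies at 37.9% and 15.9% in the sham and at 2.15% and 2.39% in the injured libraries.

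The sham libraries were compared to describe the markers before injury. Adult sham cartilage had 3 of the 10 genes at least 2-fold above young sham, against 2.66% of all genes, and 1 gene 2-fold below, against 10.6%. The higher genes were Folr2 (log2 ratio 1.26), Cd68 (1.08) and Csf1r (1.03), and the lower gene was Mertk (−1.33). With libraries scaled by median of ratios or by quantiles, 4 were higher, with Adgre1 as the added gene, and none was lower, while the shares of all genes became 5.86% higher and 5.13% lower (median of ratios) and 5.04% and 5.27% (quantiles). With a pseudocount of 5 FPKM none of the 4 stayed past 2-fold, at 0.82 for Folr2, 0.87 for Cd68, 0.78 for Csf1r and −0.88 for Mertk. Adgre1 had a log2 ratio of 0.85 and Lyz2 of 0.37. Lyve1 (−0.10) and Ly6c2 (0.06) were nearly level between the ages, while under either of those scalings the small value for Lyve1 changed sign and that of Ly6c2 was 0.47 or 0.33.

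The injured libraries were closer to each other than the shams were, over all genes as well as for the markers. Of all genes, 3.09% passed 2-fold toward the young injured library and 1.8% toward the adult one. Between the shams, 2.66% of all genes were higher in the adult library and 10.6% lower. None of the 10 genes differed 2-fold between the injured libraries. With such low shares of all genes, this count is not told apart from the background and shows nothing particular to the 10 genes. The log2 ratios for young against adult mice ran from −0.29 for Csf1 to 0.82 for Adgre1, and Mertk had 0.68. The injury ratios of Cd68, Csf1r and Folr2 exceeded those of adult mice by 1.05, 0.82 and 1.00, while the young to adult log2 ratios of their injured levels were −0.03, −0.20 and −0.25, and their sham levels were lower in the young. For Adgre1 the injury ratio was larger in young mice by 1.67, with a lower sham and a higher injured level. The injury comparison of young mice and the comparison of the shams share the young sham library, and whether the response differed with age was not testable with 1 library in each group.

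The whole level of the libraries also differed. Across 10891 genes that reached 1 FPKM everywhere, the injury ratio had a median of −0.04 in the young and 0.23 in the adult pair, and the ratio of the shams (adult to young) had a median of −0.30. Scaling by median of ratios turned these medians into −0.05, −0.06 and 0.07. The adult injury values above are to be read against the shift of 0.23. With median-of-ratios scaling 5 of the 10 genes (Lyz2, Cd68, Adgre1, Csf1r and Folr2) were still 2-fold higher in adult injured cartilage, against 4.41% of all genes. Summed FPKM ran from 469939 to 533468 for the 4 libraries, and if 1 step is 1 fragment they held between 25800000 and 30900000 fragments. An exact match of 1 step with 1 fragment was not shown, so no counting interval is given.

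Positions are given for 9 of the 10 genes, without Csf1r. On GRCm38.p6, the assembly of mm10, Adgre1 spans chromosome 17, 57358581 to 57483529, and Cd68 spans chromosome 11, 69664213 to 69666170. Lyz2 (chromosome 10, 117277541 to 117282272) and Lyz1 (117287795 to 117292868) are neighbours, as are Ly6c2 (chromosome 15, 75108161 to 75112066) and Ly6c1 (75044018 to 75048920) within the Ly6 cluster. Folr2 (101839988 to 101857190) and Lyve1 (110850607 to 110862953) lie on chromosome 7, Timd4 on chromosome 11 (46810786 to 46844333), Mertk on chromosome 2 (128698915 to 128803162) and Csf1 on chromosome 3 (107741048 to 107760469).

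Macrophage genes are commonly controlled by the factor PU.1, which binds purine-rich sites with the core GAGGAA. The 250 bases before the annotated start, from RefSeq on GRCm38.p6, were searched for GAGGAA and its reverse complement TTCCTC, and 7 members had an entry that was used. The motif was found for Cd68 and Ly6c2 and for none of the entries of Lyz2, Folr2, Csf1, Mertk and Timd4, which is 3 of the 9 entries of these members, beside 23.3% of all 32851 promoter entries. With so few entries the shares are not told apart. The sequences below are shown for Cd68 and Ly6c2, which rose after injury in young mice and hold the motif (capitals), for Folr2, which also rose and lacks it, and for Mertk, which stayed within 2-fold and lacks it. Lyz2 likewise rose and lacks it, and Csf1 lacks it and was 2-fold higher in adult but not in young mice. For Folr2 and Ly6c2 1 of 2 entries is printed. The printed Folr2 window lies within the span of the gene given above, and that of Ly6c2 partly so. The bases just after the window were found in a GENCODE transcript of the gene for Lyz2, Folr2 and Csf1. They were not found for Cd68, Ly6c2, Mertk and Timd4, so the starts of these are as annotated and not checked. They are printed 5′ to 3′ on the strand of the gene. A match describes these letters and is not a binding site, and no relation of the motif to the changes is read from it.
Cd68, chr11:69666171-69666420, minus strand: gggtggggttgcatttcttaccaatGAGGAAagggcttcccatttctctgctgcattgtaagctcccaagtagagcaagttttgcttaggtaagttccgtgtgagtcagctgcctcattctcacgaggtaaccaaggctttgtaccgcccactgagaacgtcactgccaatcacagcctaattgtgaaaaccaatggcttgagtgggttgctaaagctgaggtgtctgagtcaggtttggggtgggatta
Ly6c2, chr15:75111972-75112221, minus strand: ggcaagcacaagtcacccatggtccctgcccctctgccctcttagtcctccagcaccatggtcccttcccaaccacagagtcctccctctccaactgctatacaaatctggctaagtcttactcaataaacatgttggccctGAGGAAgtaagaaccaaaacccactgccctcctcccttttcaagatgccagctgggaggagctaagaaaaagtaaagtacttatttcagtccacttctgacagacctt
Folr2, chr7:101845332-101845581, minus strand: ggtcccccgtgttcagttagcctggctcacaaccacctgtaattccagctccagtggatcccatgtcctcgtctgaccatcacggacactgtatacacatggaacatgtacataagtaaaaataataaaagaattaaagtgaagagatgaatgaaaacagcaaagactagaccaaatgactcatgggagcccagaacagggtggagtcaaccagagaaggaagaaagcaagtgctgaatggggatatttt
Mertk, chr2:128698665-128698914, plus strand: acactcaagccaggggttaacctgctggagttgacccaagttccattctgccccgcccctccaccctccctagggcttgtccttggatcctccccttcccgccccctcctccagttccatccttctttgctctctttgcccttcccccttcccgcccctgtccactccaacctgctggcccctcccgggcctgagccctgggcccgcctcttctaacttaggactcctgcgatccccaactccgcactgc

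The genes with the most similar pattern over the 4 libraries were found for each member by the Euclidean distance between log2(FPKM + 1) values centred on each gene's mean, taken over all genes whose mean was 1 FPKM or more. With 4 libraries, many genes lie close to any flat pattern, and the distances are a description only. Csf1r and Folr2 were nearest to each other of all genes, at a distance of 0.19. Adgre1 was nearest to Dpep2 (0.19) and next to Bcl2a1b (0.37). Cd68 was nearest to Mmp19, Fcrls and C1qc, the last of which encodes a chain of complement C1q, and Lyz2 to Lrrc25, Slc11a1 and the chemokine receptor gene Ccr1. Lyve1 was nearest to Ptch1 (0.13), the Hedgehog receptor, at 18.1, 7.64, 16.4 and 9.86 FPKM in the order of libraries used above, and next to Fibin and Srcin1. Ly6c2 was nearest to Plxnd1, Myd88 and Robo4, all within 0.05, and Csf1 to Tgif1, Cmtm3 and the collagen gene Col1a2. Mertk was nearest to Zfp369, Ago3 and Satb1, each of them highest in young sham and lowest in adult sham cartilage.

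Other macrophage genes were counted in lists chosen for what they mark. For every list, 4.57% (young) and 6.9% (adult) of all genes were 2-fold higher after injury, and 1.27% and 1.46% lower. Shares between the shams and between the injured libraries are those given above. Of 18 further general macrophage genes, 16 were at least 2-fold higher in injured than in sham joints of the young, and 16 in those of adults, and none was 2-fold lower. The list had medians of 2.88 (young) and 2.29 (adult), and 15 of them had the larger ratio in young mice. With 1 FPKM added, Ctss, a lysosomal protease used in antigen presentation, rose most at both ages. It went from 9.43 to 258.1 FPKM (young) and from 14.1 to 194.4 FPKM (adult). By FPKM ratio alone Fcgr1 and Msr1, both below 1 FPKM in the shams and named after their values were seen, rose more. Tyrobp, a signalling adaptor of myeloid receptors, was at 25.5, 174.6, 27.1 and 170.8 FPKM, in the order given above. Lgals3, a galectin that chondrocytes also express, was at 162.1, 292.9, 365.9 and 585.0 FPKM, with ratios of 0.85 and 0.68.

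Of 16 further resident macrophage genes, 7 were 2-fold higher in injured joints of the young and 6 in those of adults, with medians of 0.68 and 0.38, and none was 2-fold lower. Trem2, a lipid receptor of macrophages, rose from 1.39 to 38.3 FPKM in young mice, the largest ratio (4.04), and from 8.45 to 36.0 FPKM in adult mice. Stab1, a scavenger receptor, rose by 2.76 and 2.12. Cbr2 rose from 45.0 to 114.4 FPKM in young mice and was at 43.5 and 60.1 FPKM in adult mice. Gas6, a ligand of MERTK, was at 30.9, 31.4, 58.1 and 38.3 FPKM, and Igfbp4 at 60.7, 47.5, 35.9 and 63.2 FPKM, both within 2-fold after injury. Vsig4, named after its values were seen, was at 1.84, 0.717, 3.49 and 3.98 FPKM and was 2-fold lower in the injured joints of the young than of adults (−1.54). Mrc1, the macrophage mannose receptor and likewise named after its values were seen, was the gene of the list that was 2-fold higher there (1.38), at 1.90, 20.02, 2.05 and 7.10 FPKM, with injury ratios of 2.86 and 1.41.

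Of 16 further monocyte genes, 9 were 2-fold higher in injured joints of the young and 12 in those of adults, and 1 was 2-fold lower at each age, with medians of 1.28 and 1.65. Clec4d, a C-type lectin, rose most, by 3.70 and 3.71. F13a1, a clotting factor subunit made by monocytes and macrophages, was at 28.8, 111.4, 34.6 and 109.2 FPKM, a pattern in which both injured libraries were alike. Hp, which encodes haptoglobin, was at 16.4, 45.6, 30.6 and 159.0 FPKM and Chil3, a chitinase-like gene, at 29.1, 44.7, 24.7 and 51.1 FPKM. The gene that was 2-fold lower at each age was Nr4a1, an early-response gene that also marks non-classical monocytes. It went from 34.4 to 4.88 FPKM (young) and from 39.8 to 9.45 FPKM (adult). Ccr2, the receptor that draws classical monocytes into tissue, rose from 1.64 to 23.8 and from 1.37 to 17.3 FPKM, ratios of 3.23 and 2.95 that exceed those of Ly6c2. Nr4a1 and Ccr2 were named after their values were seen.

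The pathway of CSF1 and of macrophage lineage factors held 24 further genes, of which 23 were above 0. Injury was followed by 2-fold higher levels for 14 of them in the young and for 12 in adults, with medians of 1.24 and 1.41, and none was 2-fold lower. Dok2, an adaptor of receptor kinases, rose most in young mice, by 2.37, and by 1.85 in adult mice. Ptpn6, a phosphatase of blood cells, rose by 1.71 and 1.92. Csf2ra, a chain of the GM-CSF receptor, was at 17.7, 29.2, 40.7 and 38.0 FPKM, within 2-fold after injury. Of 19 genes for the uptake of apoptotic cells, to which Mertk and Timd4 are related, 6 were 2-fold higher in the young and 5 in adults, with medians of 0.10 and 0.50. Cd36, a scavenger receptor, rose most (2.76 and 2.27), whereas Mfge8, a bridging protein, fell by 1.87 on the log2 scale in adult mice, from 8048 to 2196 FPKM, and was at 1708 and 1096 FPKM in young mice. Itgb5 was at 51.5, 50.0, 171.6 and 108.3 FPKM and Anxa1 at 69.1, 173.8, 134.4 and 223.8 FPKM.

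**Figure D4:**
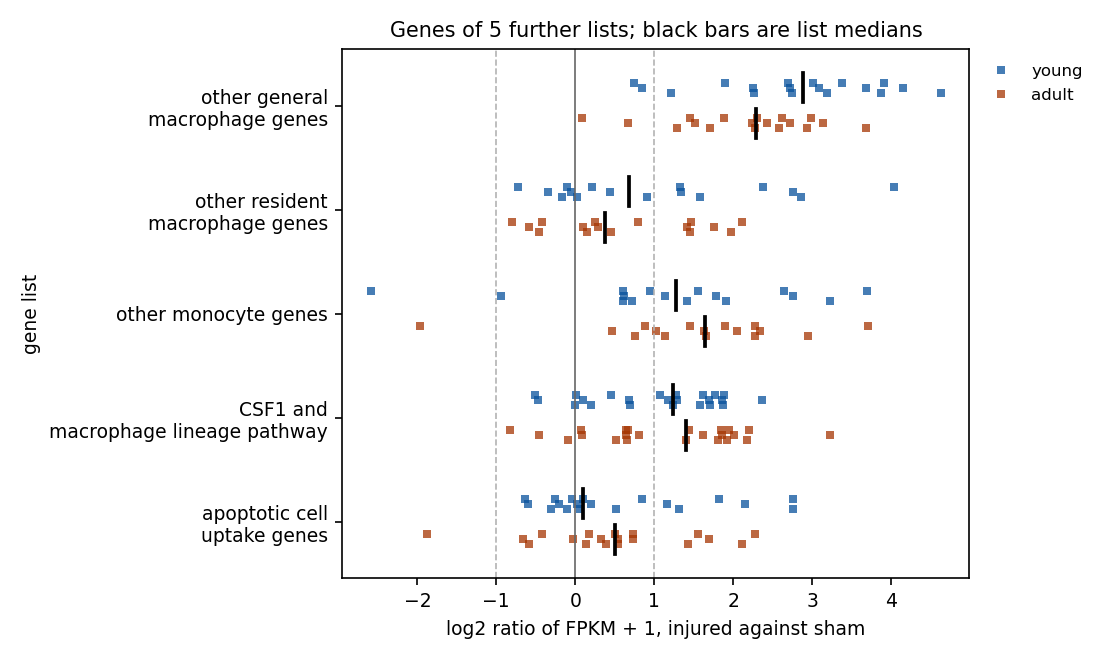
Log2 ratio of FPKM + 1 for injured against sham cartilage of each gene in 5 further lists, blue for young and brown for adult mice, with list medians as black bars and dashed lines at 2-fold. General macrophage genes had medians of 2.88 and 2.29, while resident macrophage genes spread on both sides of 0 with medians of 0.68 and 0.38.

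Markers of other cells that express some of the members were read in the same libraries. Lyz2 is also a neutrophil gene, and 11 neutrophil genes summed to 1234 FPKM in sham and 2512 FPKM in injured joints of young mice, compared with 1625 and 1963 FPKM in those of adults. Of these 3 were 2-fold higher in young mice, beside 4.57% of all genes, and 1 in adult mice, beside 6.9%. The adult count lies near the share of all genes. S100a9, the most abundant, was at 500.2, 1074, 695.8 and 820.7 FPKM. The summed level after injury was thus 2.04 times that of young sham in young mice, where Lyz2 had an FPKM ratio of 8.98. The part of neutrophils in the Lyz2 values was not tested.

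Cd68 and Csf1r are also expressed by osteoclasts, which descend from the same lineage. Of 8 osteoclast genes, 4 were 2-fold higher in injured joints of the young and 7 in those of adults, and they summed to 281.6, 719.1, 361.2 and 1351 FPKM. Acp5 was at 122.4, 305.6, 178.6 and 713.2 FPKM and Ctsk at 87.4, 170.8, 135.9 and 403.3 FPKM. Mmp9 had the largest injury ratios of the list (1.76 and 2.28), at 66.5, 227.4, 40.6 and 201.3 FPKM, and was not lower in young injured cartilage. In the injured libraries 4 of the 8 genes were 2-fold lower in the young, where Cd68 and Csf1r were nearly level, and all 8 had the larger injury ratio in adult mice. The part of osteoclasts in the values of Cd68 and Csf1r was not tested.

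Lyve1 also marks lymphatic vessels. Of 6 lymphatic endothelial genes only Pdpn, which fibroblasts and bone cells also express, reached 1 FPKM in all libraries, at 14.2, 41.1, 6.72 and 32.5 FPKM, and it was 2-fold higher after injury at both ages. Prox1, the defining factor of lymphatic endothelium and named after its values were seen, was at 0.0139 FPKM in young sham and 0.00943 FPKM in adult injured cartilage and listed at 0 in the other libraries. Flt4 was at 0.398, 1.23, 0.0942 and 0.788 FPKM and Mmrn1 at 0.251, 0.350, 0.0552 and 0.225 FPKM. Both were higher after injury at each age, though within 2-fold once 1 FPKM was added. Reln, at 0.107, 0.201, 0.00556 and 0 FPKM, and Ccl21a, at 0, 0.152, 0 and 0 FPKM, were named after their values were seen. The part of lymphatic vessels in the Lyve1 values was not tested. Of 6 blood endothelial genes, which bear on Ly6c1 and so on Ly6c2, 5 were 2-fold higher after injury at each age, and they summed to 14.9, 74.6, 16.8 and 61.6 FPKM. Plvap was at 5.78, 25.0, 7.61 and 30.0 FPKM. The part of endothelium in the Ly6c2 values was not tested.

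Blood and marrow genes differed between the ages. Of 5 erythroid genes all were 2-fold lower in adult sham than in young sham cartilage and none was 2-fold higher after injury, with Hba-a1 2-fold lower in adult mice (−2.20), and the list summed to 9555, 17631, 4081 and 2946 FPKM. Of 5 B cell genes all were 2-fold lower in adult than in young sham cartilage, with sums of 51.9, 72.2, 10.7 and 19.0 FPKM, whereas Ly6c2 was level between the shams. Fibroblast genes, 7 in number, summed to 838.8, 1483, 566.7 and 1640 FPKM, and 9 chondrocyte genes to 18227, 16700, 32071 and 18259 FPKM. The chondrocyte sum of adult sham cartilage was carried by Chad (20538 FPKM) and Comp (7203 FPKM), while 5 of the 9 genes were 2-fold lower in adult than in young sham cartilage, with a list median of −1.56. After injury in adult mice Acan (1.38) and Col9a1 (1.95) were 2-fold higher and Chad (−1.31) 2-fold lower, and in young mice none of the 9 differed 2-fold. Acan was named after its values were seen. The part of marrow, fibroblasts or the share of chondrocyte RNA in the marker levels was not tested.

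**Figure D5:**
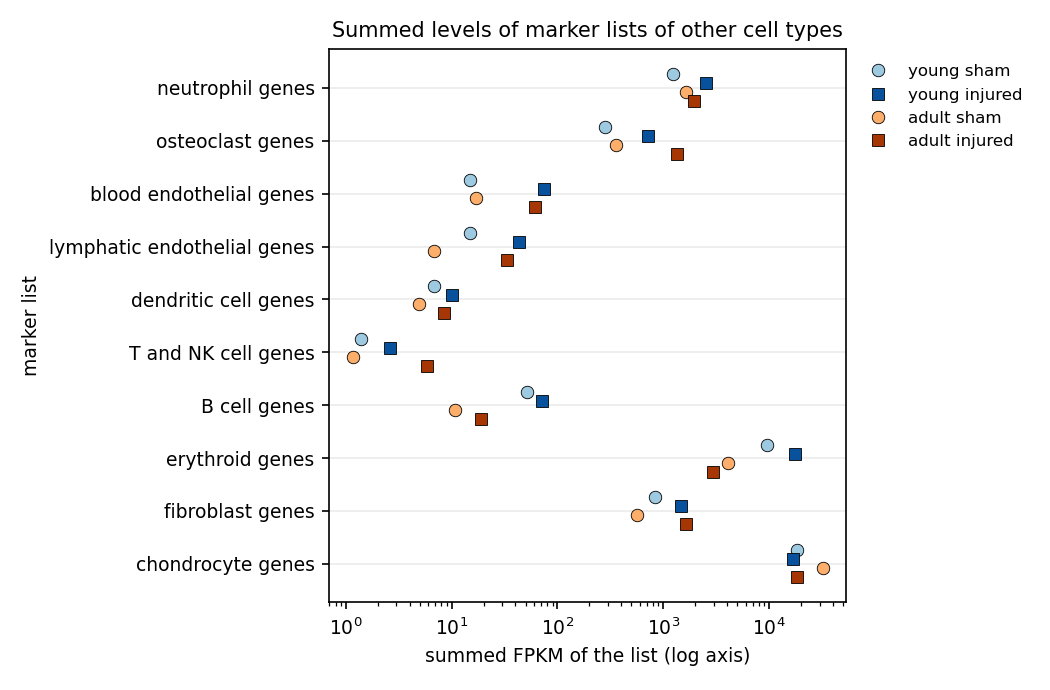
Summed FPKM of marker lists of other cell types, on a log axis, with 1 point for each library. Osteoclast genes were highest in adult injured cartilage (1351 FPKM), blood endothelial genes were higher in both injured libraries, and erythroid and B cell genes were higher in both young than in both adult libraries.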

How the data were processed

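Total RNA of cartilage pooled from several mice in each group was made into stranded, poly-A selected, paired-end libraries. The authors deposited FPKM for 24532 genes and 4 libraries on mm10, and the submitters' processing notes name HISAT2 2.1.0 and StringTie 1.3.4d among their tools. FPKM are relative to transcript length and mapped fragments, so that 1 very abundant gene lowers all others. The members and gene lists were chosen with earlier results of these data known.

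Columns were matched to groups by the sample labels. Log2 ratios of FPKM + 1 were calculated between libraries, with 2-fold as the threshold and the share of all genes above 0 past it as the background. No p-value or standard deviation was calculated, since each group was 1 library. Named genes were the 10 members, their near copies, Il34, and of each further list the 3 most abundant genes and those with the largest injury ratio. Others are marked, and some genes that these rules name are not reported here. Alternatives were pseudocounts of 0.1 and 5 FPKM, a filter at 1 FPKM, TPM, median-of-ratios and quantile scaling, and thresholds of 1.5-fold and 3-fold. Shared sequence was measured on GENCODE transcripts, and the low FPKM steps on 17546 genes with a single listed transcript. Positions and promoters came from RefSeq. Scripts were tested on simulated data and run in Python 3.11.15 (matplotlib 3.10.9, numpy 2.4.6, pandas 2.3.3).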

Additional observations from a re-analysis of the deposited data

Results flagged for a closer look

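The log2 ratios of Mertk and Timd4 after injury differed in sign between the 2 ages. Mertk had −0.45 in young and 0.20 in adult mice, and Timd4 had 0.10 in young and −0.10 in adult mice. None of these values reached 2-fold, Timd4 rests on too few fragments for a direction to be read, the difference between the ages was not tested, and the adult value of Mertk was below 0 after median-of-ratios scaling and quantile normalization.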

How the results depend on the processing

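Of 17 member values at or past 2-fold over the 4 comparisons, 17 kept their sign and 11 stayed past 2-fold under all 5 other scalings and pseudocounts. The number of members 2-fold different between the sham libraries, 4, was 0 with a pseudocount of 5 FPKM and 0 with a 3-fold threshold. Between the injured libraries it was 0, and 2 with a 1.5-fold threshold (Adgre1 and Mertk, both higher in young), where 9.78% of all genes were higher and 5.51% lower. The other counts stayed within 1.5 times of the values given. After injury in young mice Lyve1 was added as a lower gene on the TPM scale, with quantile normalization, with a pseudocount of 0.1 FPKM and with a 1.5-fold threshold, under which 2.37%, 1.496%, 4.22% and 4.81% of all genes were lower. After injury in adult mice 5 genes were higher and 1, Lyve1, lower with quantile normalization (3.99% and 2.69% of all genes), 7 were higher and 1, again Lyve1, lower with a 1.5-fold threshold (17.9% and 3.96%), and 6 were higher and 1, Mertk, lower when adult injured was set against young sham cartilage (5.74% and 4.15%), an alternative chosen after seeing the data. Median-of-ratios scaling also changed the background in adult mice, to 4.41% of all genes 2-fold higher and 2.90% lower. No paired analysis was possible because each group was 1 library. Replicate spread is unknown, and levels below 1 FPKM, as for Timd4, rest on few fragments.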

Other observations

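Proliferation genes, 5 in number, were 2-fold higher in injured joints for 3 genes (young) and 5 genes (adult), and all 5 were 2-fold lower in adult than in young sham cartilage, with sums of 65.1, 152.0, 9.61 and 38.7 FPKM. Among 6 dendritic cell genes Itgax, which macrophages also express, had the largest injury ratios, 1.47 (young) and 1.59 (adult), and the list summed to 6.86, 10.1, 4.94 and 8.39 FPKM. T and NK cell genes, 6 in number, summed to 1.40, 2.63, 1.16 and 5.79 FPKM, of which Nkg7 made up 3.80 FPKM in adult injured cartilage.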
